A study of Mus musculus with 4 samples.

Results

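Gamma-delta T cells that carried little or no IL-17 RNA made up 355 of the 28607 kept cell barcodes of a single-cell RNA-sequencing study of mouse back skin. A barcode was kept with at least 500 genes, at least 1000 gene UMIs (unique molecular identifiers, 1 per captured RNA molecule) and at most 10% of UMIs from mitochondrial genes. A member then had at least 3 UMIs of Trdc, the constant region of the T-cell receptor delta chain, and at least 1 UMI of Cd3e, Cd3d or Cd3g, which encode the CD3 chains. It had at most 4 UMIs of Il17a and Il17f, at most 1 of Il13 and Il5, at most 1 of Cd8a and Cd8b1, and at most 2 of C1qa, C1qb and C1qc, which mark macrophages. The members were chosen by these measured counts, so the level of the same genes in the members is a description and supports nothing. The rule found 171 members in the treated Cd226-/- library, 68 in the treated WT library, 115 in the naive CD45+ library and 1 in the naive CD45- library, and this last cell entered no comparison.

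The study followed early skin carcinogenesis in Balb/c mice. Treated animals, Cd226-/- or WT, received 25 µg of the carcinogen DMBA once on the back skin and, 1 week later, 5 µg of the tumour promoter TPA once weekly for 3 weeks, and skin cells were collected 3 weeks after treatment. Each library held skin cells pooled from 3 mice, and in the treated libraries sorted CD45+ and CD45- cells were mixed 1:1. The naive libraries were made from untreated skin, and each was a 1:1 pool of WT and Cd226-/- cells sorted as CD45+ or CD45-. Because the naive members come from both genotypes, a difference between a treated library and the naive library holds treatment together with genotype, and the 2 cannot be told apart. All cells also carried DNA-tagged antibodies to CD45.2 and to DNAM-1, the protein that Cd226 encodes. There was 1 library per group, so no difference below has a replicate check and no p-value is given. Intervals are 95% exact intervals and cover counting error only.

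Gamma-delta T cells carry a receptor of a gamma and a delta chain in place of the alpha and beta chains of other T cells. In mouse skin they fall into families named by their V segments. Dendritic epidermal T cells sit between the keratinocytes, pair a Tcrg-V5 gamma chain with a Trdv4 delta chain, arise in the fetal thymus, sense stressed or damaged keratinocytes through receptors such as NKG2D and JAML, and are known for cytotoxic granules, XCL1 and epidermal growth factors. Dermal gamma-delta T cells use mostly Tcrg-V4 or Tcrg-V6 and respond to IL-7, IL-1 and IL-23 with IL-17. Trdv4 is used by the epidermal cells and by the Tcrg-V6 dermal cells alike. CD226 is an activating receptor of T and NK cells that binds nectin-family ligands on stressed and tumour cells.

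The V segments whose UMIs separate these families are shown by the last 60 bases of their V exons, which encode the end of the segment just before the junction (GENCODE vM21, GRCm38, + strand). Capitals mark the TGT codon of the conserved cysteine.
Tcrg-V5, chr13:19192666-19192725: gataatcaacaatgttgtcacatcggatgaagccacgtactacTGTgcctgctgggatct
Tcrg-V6, chr13:19190870-19190929: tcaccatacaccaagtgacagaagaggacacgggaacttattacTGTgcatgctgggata
Tcrg-V4, chr13:19185447-19185506: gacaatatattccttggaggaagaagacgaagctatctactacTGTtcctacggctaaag
Trdv4, chr14:54075456-54075515: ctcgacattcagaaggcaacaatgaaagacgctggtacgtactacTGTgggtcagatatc
Over the whole V exons the 3 gamma segments and Trdv4 shared between 48.9% and 54.1% of aligned bases in each pair, and Tcrg-V5 and Tcrg-V6 shared 54.1%. The longest identical run in any pair was 14 bases. The libraries read the 3′ end of transcripts, far from the V exon, so a member without a V-segment UMI is not shown to lack that segment. The constant gene Trdc (ENSMUSG00000104876), which the rule used, lies on chromosome 14 from 54142851 to 54148868 on the + strand.

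The 4 libraries held 42043869 to 81406730 gene UMIs. Members had a median of 4126 UMIs in the Cd226-/- library, 2800 in the WT library and 5637 in the naive library, so the WT members were the fewest and the shallowest. Between 9 and 21 barcodes were shared by any pair of libraries, and no member shared its barcode with another member. The doublet caller marked 3, 3 and 1 members in the Cd226-/-, WT and naive libraries, but it marked 0.256% of all naive barcodes and was not relied on there. RNA of other cell types differed with the library. At least 20 UMIs from one of 6 gene sets of other cells (antigen presentation, phagocyte, fibroblast, neutrophil, keratinocyte, mast cell) were found in 40 of 171 Cd226-/- members (23.4%), 7 of 68 WT members (10.3%) and 6 of 115 naive members (5.22%). Those members were also deep, with median totals of 11248, 14283 and 15446 UMIs. Over all members the summed level of the macrophage list was 3343 counts per 1000000 gene UMIs (CPM) in the Cd226-/- library, 1881 in the WT library and 897 in the naive library, and that of the fibroblast list was 5598, 7342 and 41.5 CPM. The NK-cell list stood at 77.2, 258 and 22.1 CPM, with 3, 3 and 2 of its 7 genes at 0 in the Cd226-/-, WT and naive libraries. The mast-cell list stood at 46.9, 56.5 and 0 CPM with Cpa3, Mcpt4 and Tpsb2 at 0, and the B-cell list at 53.7, 84.7 and 56.7 CPM with Ms4a1 at 0. The Langerhans and dendritic-cell list stood at 5726, 3055 and 4279 CPM, the neutrophil list at 1212, 1157 and 794 CPM, the keratinocyte list at 19.5, 102 and 26.3 CPM and the alpha-beta T-cell list at 1208, 1806 and 1345 CPM. Levels are therefore also given for members with fewer than 20 UMIs in each of the 6 sets, a filter chosen after the data were seen, and these are called members without RNA of other cells.

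Most members carried a UMI of Trdv4 or Tcrg-V5, and are called receptor-positive. Trdv4 or Tcrg-V5 was detected in 120 of 171 Cd226-/- members (70.2%, 62.7 to 76.9), in 49 of 68 WT members (72.1%, 59.9 to 82.3) and in 64 of 115 naive members (55.7%, 46.1 to 64.9). Nearly all of this came from Trdv4, which does not by itself tell epidermal cells from Tcrg-V6 dermal cells. Trdv4 was found in 119, 49 and 62 members, at 268 CPM (237 to 301) in the Cd226-/- library, 374 CPM (306 to 452) in the WT library and 253 CPM (218 to 292) in the naive library. Trdv4 was close to absent from cells that should lack it. It was found in 0.565%, 0.559% and 0.667% of fibroblasts (median depth 12491, 10049 and 15404.5 UMIs) and in 1 of 105, 2 of 116 and 0 of 18 CD8 T cells. In gamma-delta cells over the IL-17 limit, which the same rule otherwise admits, Trdv4 was found in 48 of 121 Cd226-/- cells (39.7%), 23 of 76 WT cells (30.3%) and 7 of 16 naive cells (43.8%).

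The gamma segments were read in few cells. Tcrg-V5, the gamma segment of dendritic epidermal T cells, was detected in 8 Cd226-/- members (4.68%), 5 WT members (7.35%) and 10 naive members (8.70%), and in 0 of the IL-17-high cells of any library. Of these members 7, 5 and 8 also had a Trdv4 UMI. Tcrg-V6, the other partner of Trdv4, was found in 2 Cd226-/- members, 0 WT members and 9 naive members, each of them with a Trdv4 UMI as well. Tcrg-V4, the segment of many dermal cells, was found in 2, 1 and 10 members, and 2, 1 and 1 of those had Trdv4. Trgv2 was found in 18, 3 and 32 members and Tcrg-V1 in 4, 0 and 6. The members of the naive library therefore held a wider mixture of gamma segments than those of either treated library, and they were also the deepest.

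**Figure D1:**
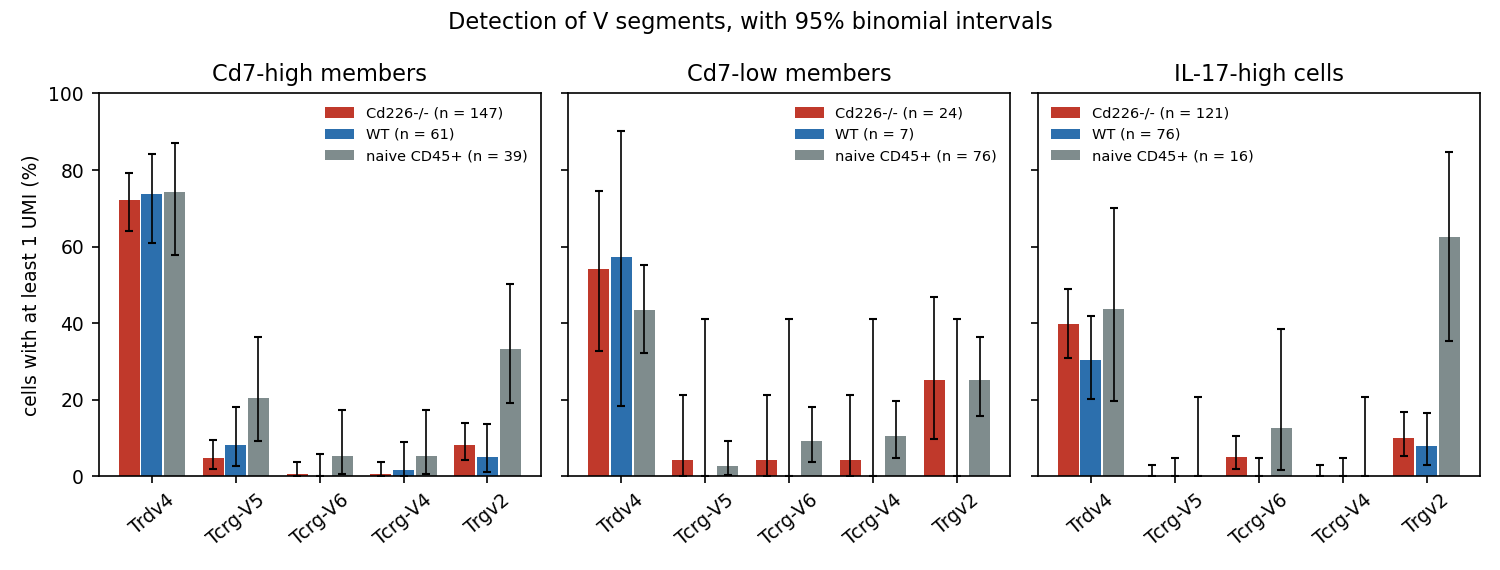
Percent of cells (y axis) with at least 1 UMI of Trdv4, Tcrg-V5, Tcrg-V6, Tcrg-V4 or Trgv2 in Cd7-high members, Cd7-low members and IL-17-high gamma-delta cells of the Cd226-/-, WT and naive CD45+ libraries, with 95% binomial intervals. Trdv4 was in 72.1%, 73.8% and 74.4% of the Cd7-high members, and Tcrg-V5 was at 0 in the IL-17-high cells.

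The members differed by genes that the rule had not used, and 2 kinds are told apart here by their RNA only. One kind carried RNA of Fcer1g (the FcR gamma signalling chain), Cd7 (an immunoglobulin-family surface protein of T and NK cells) and Nkg7 (a cytotoxic granule protein), and the other carried Il7r, Blk, Maf, Cxcr6 and Ramp1. Members with at least 5 UMIs over Fcer1g, Cd7 and Nkg7 are called Cd7-high and the rest Cd7-low. The same limit was passed by 74.3%, 87.1% and 88.9% of CD8 T cells and by 10.7%, 10.5% and 0% of IL-17-high gamma-delta cells of the Cd226-/-, WT and naive libraries, so it does not mark a kind of gamma-delta cell by itself. The split was drawn after the data had been seen and is a range, not a cell type. Cd7-high members were 147 of 171 in the Cd226-/- library (86.0%, 79.8 to 90.8), 61 of 68 in the WT library (89.7%, 79.9 to 95.8) and 39 of 115 in the naive library (33.9%, 25.3 to 43.3). Few members lay near the limit, with 5, 6 and 2 at 3 to 9 UMIs, while 17, 6 and 10 Cd7-high members also had at least 5 UMIs of the opposite set. The medians of the 3-gene sum were 29, 22 and 53 UMIs in Cd7-high members and 0 in the Cd7-low members of each library. After each member was thinned to 1000 UMIs, 81.2%, 89.1% and 31.6% of members had at least 2 UMIs of the set. Treated libraries held CD45+ and CD45- cells at 1:1 and the naive library CD45+ cells only, and the part of this sort in the shares was not tested. The IL-17 limit alone had left out 121, 76 and 16 gamma-delta cells of the Cd226-/-, WT and naive libraries. Of those 13, 8 and 0 were Cd7-high, so the shares hold for the members and not for all gamma-delta cells.

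**Figure D2:**
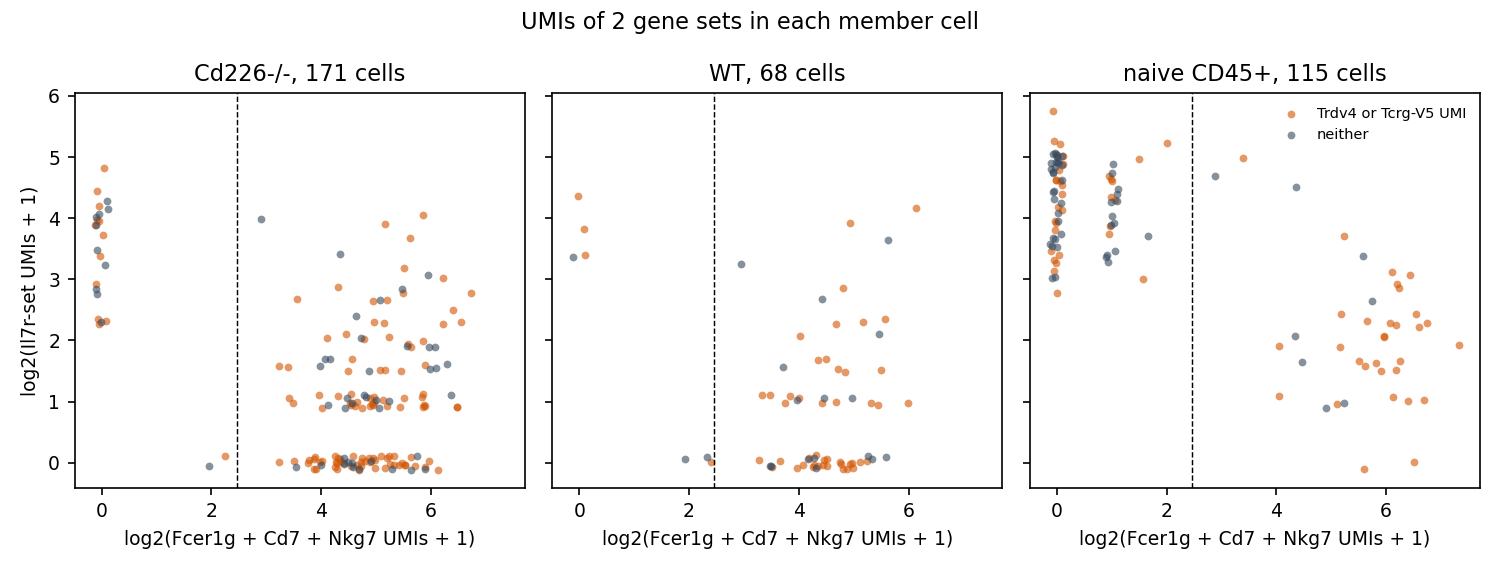
Each point is 1 member, with the summed UMIs of Fcer1g, Cd7 and Nkg7 on the x axis and of Il7r, Blk, Maf, Cxcr6 and Ramp1 on the y axis, both as log2 of the count plus 1, for the Cd226-/-, WT and naive CD45+ libraries. The dashed line marks 5 UMIs, and coloured points have a Trdv4 or Tcrg-V5 UMI. Most treated members lie right of the line and most naive members left of it.

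Trdv4 or Tcrg-V5 was found in a larger share of Cd7-high than of Cd7-low members, with intervals that overlap in the treated libraries. Trdv4 or Tcrg-V5 was detected in 107 of 147 Cd7-high and 13 of 24 Cd7-low members of the Cd226-/- library (72.8%, 64.8 to 79.8, and 54.2%, 32.8 to 74.4). In the WT library it was detected in 45 of 61 and 4 of 7 (73.8%, 60.9 to 84.2, and 57.1%, 18.4 to 90.1), and in the naive library in 31 of 39 and 33 of 76 (79.5%, 63.5 to 90.7, and 43.4%, 32.1 to 55.3). Tcrg-V5 was in 4.76%, 8.20% and 20.5% of Cd7-high members, and 7 of 8, 5 of 5 and 8 of 10 cells with Tcrg-V5 were Cd7-high. In the naive library 7 of 9 cells with Tcrg-V6 and 8 of 10 with Tcrg-V4 were Cd7-low. Xcl1, which encodes the chemokine XCL1 that attracts XCR1+ dendritic cells, was almost limited to one kind: 45 of 45, 29 of 30 and 27 of 27 cells with an Xcl1 UMI were Cd7-high. Blk, a Src-family kinase of IL-17-programmed gamma-delta cells, showed the reverse, with 15 of 16, 2 of 3 and 63 of 67 Blk-positive members Cd7-low. Of the markers of dendritic epidermal T cells, Trdv4 and Xcl1 were thus both found among Cd7-high members, and Tcrg-V5 was seldom read. Trdv4 was in 32 of 45, 23 of 30 and 20 of 27 members with Xcl1. It was in 106 of 147, 45 of 61 and 29 of 39 Cd7-high members, a like share, and in 13, 4 and 33 Cd7-low members. Xcl1 was found in 1 Cd7-low member of the 3 libraries, and the Cd7-low members are named here by their genes only.

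Among members without RNA of other cells (109, 54 and 34 Cd7-high and 22, 7 and 75 Cd7-low), many further genes differed between the kinds. All are given as a description, since the split used the same cells. Ctla2a, a cysteine protease inhibitor, stood at 6409 and 261 CPM in Cd7-high and Cd7-low members of the Cd226-/- library, 6929 and 1577 CPM in the WT library and 6103 and 0 CPM in the naive library. Trat1, an adaptor of the T-cell receptor complex, stood at 927 and 78.4 CPM, 1099 and 117 CPM, and 1565 and 0 CPM in the same order. The focal-adhesion protein gene Fermt2 stood at 855 and 52.3 CPM, 1043 and 292 CPM, and 855 and 0 CPM. The pore-forming Prf1 stood at 359 and 39.2 CPM, 379 and 58.4 CPM, and 1288 and 11.1 CPM. Lck, Cd2, Thy1 and Klrd1 were also higher in Cd7-high members of each library, though Klrd1 was 876 and 759 CPM in the WT library, where the Cd7-low members are 7 cells.

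Other genes were higher in the Cd7-low members. The cation-channel gene Tmem176b stood at 29.9 and 1790 CPM in Cd7-high and Cd7-low members of the Cd226-/- library, 39.1 and 1519 CPM in the WT library and 42.1 and 781 CPM in the naive library. Il7r, the IL-7 receptor chain, stood at 27.8 and 431 CPM, 112 and 818 CPM, and 12.04 and 918 CPM. Blk was at 0 and 314, 5.58 and 292, and 0 and 352 CPM. Actn2, a cytoskeletal actinin, was at 0 in the Cd7-high members of all 3 libraries and at 261, 175 and 442 CPM in the Cd7-low members. Maf, Klf2, Rora, Ramp1 and Serpinb1a followed the same order in every library. In the WT library, with 7 Cd7-low cells, the intervals of Klf2 (0.255, 0.0611 to 1.49) and Rora (0.812, 0.193 to 7.24) reached past equal levels. The immediate-early genes Nfkbia (464 and 5186 CPM in the Cd226-/- library, 558 and 1519 CPM in the WT library, 175 and 1166 CPM in the naive library) and Cd69 (408 and 2430, 363 and 409, and 427 and 1111 CPM) were higher in Cd7-low members too. Cd69 was near even in the WT library (0.887, 0.407 to 2.29). Egr1 and Nr4a1, higher in Cd7-low members of the other libraries, went the other way in WT (307 and 175, and 435 and 292 CPM).

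Cd7-low members of naive skin differed further by Trdv4. Among those without RNA of other cells, 32 had a Trdv4 UMI and 43 had none. Cd163l1, the scavenger-receptor gene, stood at 1191 CPM with Trdv4 and 167 CPM without it (7.14, 5.17 to 10.0), in 32 and 11 cells. The neuropeptide gene Calca stood at 794 and 14.5 CPM, but 90 of its 140 UMIs came from 1 cell. The adhesion gene Icam1 (5.08), the survival gene Bcl2a1b (4.06), the interferon-induced Isg15 (3.03) and Icos (2.83) were higher with Trdv4, and the chaperone gene Hspa5 (0.483), the transcription-factor gene Hlf (0.348) and Rgcc (0.248) lower. Tcrg-V6 was found in 7 and 0 cells, Tcrg-V4 in 0 and 8, and Trgv2 in 5 and 14. Of 1148 genes with at least 50 UMIs, 37 were at least 2-fold higher with Trdv4 (3.22%) and 14 lower (1.22%).

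The CD45 antibody tag, which was not used to choose or split the members, also differed between the kinds. It had a median of 1543 counts in Cd7-high members of the Cd226-/- library, 1344 in the WT library and 1485 in the naive library, against 568, 721 and 491.5 counts in Cd7-low members. IL-17-high gamma-delta cells (637, 747 and 659 counts) lay near the Cd7-low members, CD8 T cells lay between (947, 1305.5 and 1100.5), and fibroblasts, which lack CD45, were at 7, 6 and 13.

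DNAM-1 was low on most of these cells even in the WT library. The DNAM-1 tag had a median of 2 counts in Cd226-/- members, 20 in WT members and 11 in naive members, against 2, 16 and 10 counts on the fibroblasts of the same libraries. In the WT library, Cd7-high members had a median of 20 counts (quartiles 16 and 25), IL-17-high cells 57 (39 and 71) and CD8 T cells 63.5. The tag exceeded the 95th percentile of the library's fibroblasts in 15 of 61 WT Cd7-high members (24.6%), 4 of 7 WT Cd7-low members (57.1%), 71 of 76 WT IL-17-high cells (93.4%) and 107 of 116 WT CD8 T cells (92.2%). The same share was 4.68% of Cd226-/- members. In the naive library it was 1.74% of members, 1 of 16 IL-17-high cells and 0 of 18 CD8 T cells, whose medians of 10.5 and 9.5 counts lay near that of the fibroblasts (10), so the tag cannot be read there. The medians of Cd7-high and Cd7-low members were 2 and 2 in the Cd226-/- library and 10 and 11 in the naive library. Cd226 RNA gave 1 UMI in Cd226-/- members, 6 UMIs in 3 WT members and 3 UMIs in 3 naive members, at or near the floor of 3 UMIs used here for a sum at 0. A 3′ read need not come from the deleted stretch, so these UMIs do not check the deletion. The tag on CD8 T cells had a median of 2 counts in the Cd226-/- library and 63.5 in the WT library, against 2 and 16 on fibroblasts. It exceeded the fibroblast 95th percentile in 2.86% of Cd226-/- and 92.2% of WT CD8 T cells. The fibroblast background also differed between these libraries, so the deletion itself was not tested.

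**Figure D3:**
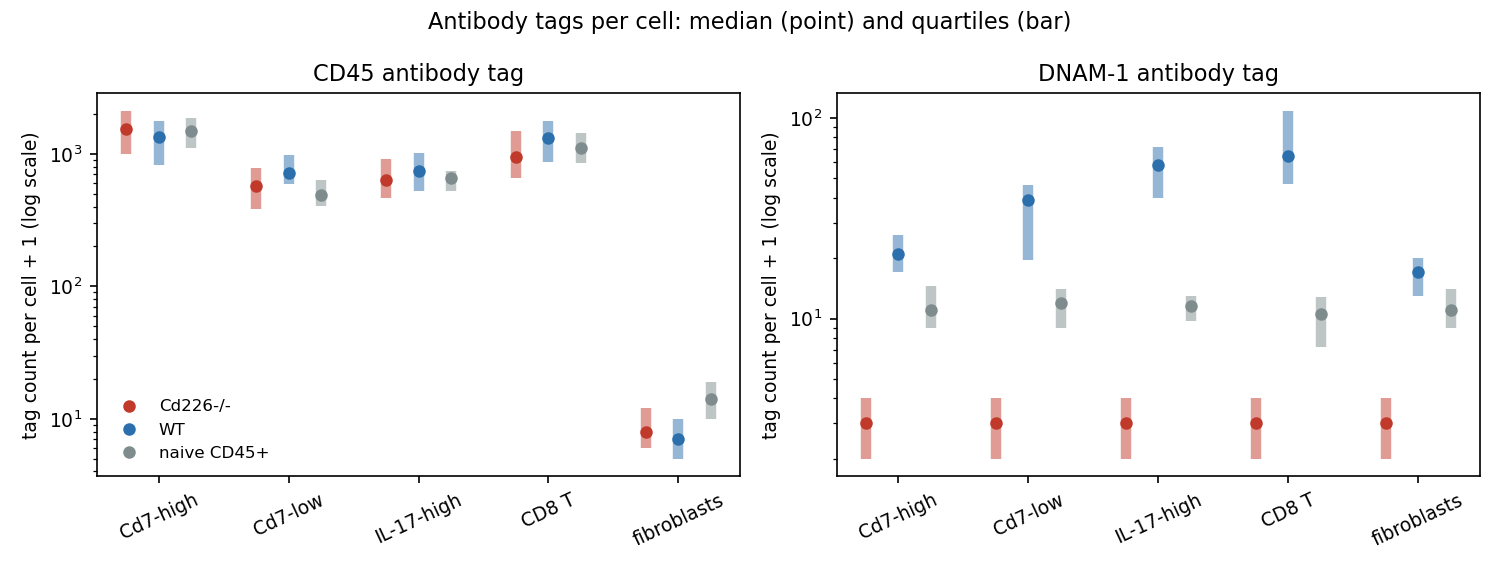
Antibody tag counts plus 1 (log y axis) for CD45 and DNAM-1 in Cd7-high members, Cd7-low members, IL-17-high gamma-delta cells, CD8 T cells and fibroblasts of the Cd226-/-, WT and naive CD45+ libraries. Points are medians and bars run from the lower to the upper quartile. In the WT library the DNAM-1 median of Cd7-high members was 20 counts, against 57 in IL-17-high cells and 16 in fibroblasts.

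The IL-17 limit separates the IL-17-high gamma-delta cells from the members. Set beside them, Cd7-high members without RNA of other cells were higher in Xcl1 and Prf1 and lower in Areg, Gzmb and Il22. The IL-17-high cells and CD8 T cells of these ratios were not filtered for RNA of other cells. Of the IL-17-high cells 10.7%, 10.5% and 0% were Cd7-high themselves in the Cd226-/-, WT and naive libraries. Xcl1 stood at 427 CPM in Cd7-high members and 3.28 CPM in IL-17-high cells of the Cd226-/- library, a ratio of 130 (35.6 to 1080). It stood at 1038 and 36.5 CPM in the WT library (28.4, 16.8 to 51.8). In the naive library it stood at 1456 and 0 CPM, a ratio of 69.1 (23.4 to 337) at the floor of 3 UMIs. Prf1 was 11.5-fold and 26.0-fold higher in the Cd226-/- and WT libraries, and 61.1-fold (20.6 to 299) in the naive library at the same floor. Areg, which encodes the EGF-receptor ligand amphiregulin, was at 2117 and 7930 CPM in the Cd226-/- library (0.267), 1378 and 5144 CPM in the WT library (0.268) and 66.2 and 1251 CPM in the naive library (0.0529). Granzyme B (Gzmb) stood at ratios of 0.0906 and 0.195 in the treated libraries. The costimulatory receptor gene Tnfrsf9 was at nearly the same level in both, with ratios of 0.970 (0.827 to 1.14) and 1.15. Cd163l1, a scavenger-receptor gene of skin gamma-delta cells, stood at ratios of 1.60 (1.40 to 1.82), 2.37 (1.92 to 2.92) and 0.977 (0.723 to 1.32) against IL-17-high cells, and at 863 and 161 against the CD8 T cells of the treated libraries.

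The comparison of Cd226-/- with WT sets 1 treated library of each genotype side by side. Genotype cannot be told apart here from other differences between these libraries. Of 3886 genes with at least 50 UMIs over both sets of members, 196 were at least 2-fold higher in Cd226-/- members (5.04%) and 60 at least 2-fold lower (1.54%). Among Cd7-high members without RNA of other cells the counts were 63 of 2101 genes higher (3%) and 18 lower (0.857%). With the minimum lowered to the 20 UMIs used for gene lists, 7.47% of genes were higher and 2.77% lower. The higher genes were led by genes known from macrophages and dendritic cells, and the lower genes by Xcl1.

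Xcl1 (ENSMUSG00000026573, chromosome 1, 164931644 to 164935527, - strand) was at 234 CPM in Cd226-/- members and 723 CPM in WT members, with 335 CPM in naive members. The ratio was 0.323 (0.267 to 0.391), from 239 UMIs in 45 Cd226-/- cells and 205 UMIs in 30 WT cells, and the richest cell held 37 and 61 of them. Among Cd7-high members without RNA of other cells it was 427 CPM in the Cd226-/- library and 1038 CPM in the WT library, a ratio of 0.412 (0.336 to 0.506). An Xcl1 UMI was found in 33.9% and 48.1% of those cells, and in 18.6% and 28.6% of them after thinning to 1000 UMIs. Fibroblasts carried one in 0.141% and 0.0972% at a greater depth.

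Other genes on the lower side stayed lower within the Cd7-high members. Cd160, an immunoglobulin-family receptor of cytotoxic lymphocytes, was at 31.3 CPM in Cd226-/- members and 74.1 CPM in WT members (0.422), and at 38.5 and 112 CPM in the Cd7-high members (0.345, 0.172 to 0.686). In receptor-positive members alone its ratio was 2.91, and in receptor-negative members 0.154. Fam3c, a secreted cytokine-like protein gene, was at 76.2 and 187 CPM (0.408, 0.284 to 0.589), with a ratio of 0.431 (0.287 to 0.649) in the Cd7-high members. The Tec-family kinase gene Txk was at 51.8 and 109 CPM (0.473, 0.298 to 0.763), with 0.444 in the Cd7-high members. Fam46a (84.0 and 205 CPM) stood at 0.411, and at 0.33 in the Cd7-high members. AW112010 (222 and 480 CPM) stood at 0.462, but at 0.65 in the Cd7-high members, short of 2-fold. Ms4a4b, Fam110a, Rnaseh2c, Mcur1, Kidins220 and Ppil3 made up the rest of the lower named genes, with ratios between 0.388 and 0.485. Mcur1 stood at 1.59 in receptor-negative members alone.

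The higher named genes came mostly with RNA of other cells. The macrophage chitinase-like gene Chil3 had 140 UMIs in Cd226-/- members and 2 in WT members, a ratio of 19.4 (5.27 to 162). Tgfbi, a matrix protein gene, had 517 and 19 UMIs (7.54, 4.78 to 12.6), and the protease inhibitor gene Slpi had 192 and 5 (10.6, 4.48 to 33.1). With WT members set to the floor of 3 UMIs, the lectin gene Cd209d (109 and 0 UMIs) stood at 10.1 (3.35 to 49.5). Mgl2, another lectin gene (88 and 0), stood at 8.12 (2.69 to 40.1) with the same floor, and Cd209a at 6.31. Among Cd7-high members without RNA of other cells most had few UMIs. Tgfbi kept 60 and 1 there (23.0, 3.97 to 923). Chil3 had 6 and 0 there, Slpi 12 and 0, Mgl2 4 and 0, and Gatm 7 and 0. Cd209d had 49 and 0 with 37 in 1 cell, Irf8 52 and 0 with 38 in 1 cell, and the costimulatory ligand gene Tnfsf9 48 and 0 with 37 in 1 cell. Uck2, a uridine kinase gene, was spread over more cells, with 87 UMIs in 46 Cd226-/- cells and 3 UMIs in 3 WT cells, a ratio of 8.03 (2.66 to 39.7), and it had 26 and 3 UMIs in those Cd7-high members. Zfp703, a zinc-finger repressor gene, had 101 and 5 UMIs (5.59, 2.32 to 17.6) and kept 44 and 2 there (8.43, 2.2 to 71.7). The summed macrophage list in these Cd7-high members was still 444 CPM in the Cd226-/- library and 251 CPM in the WT library, and its part in the remaining differences was not tested.

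**Figure D4:**
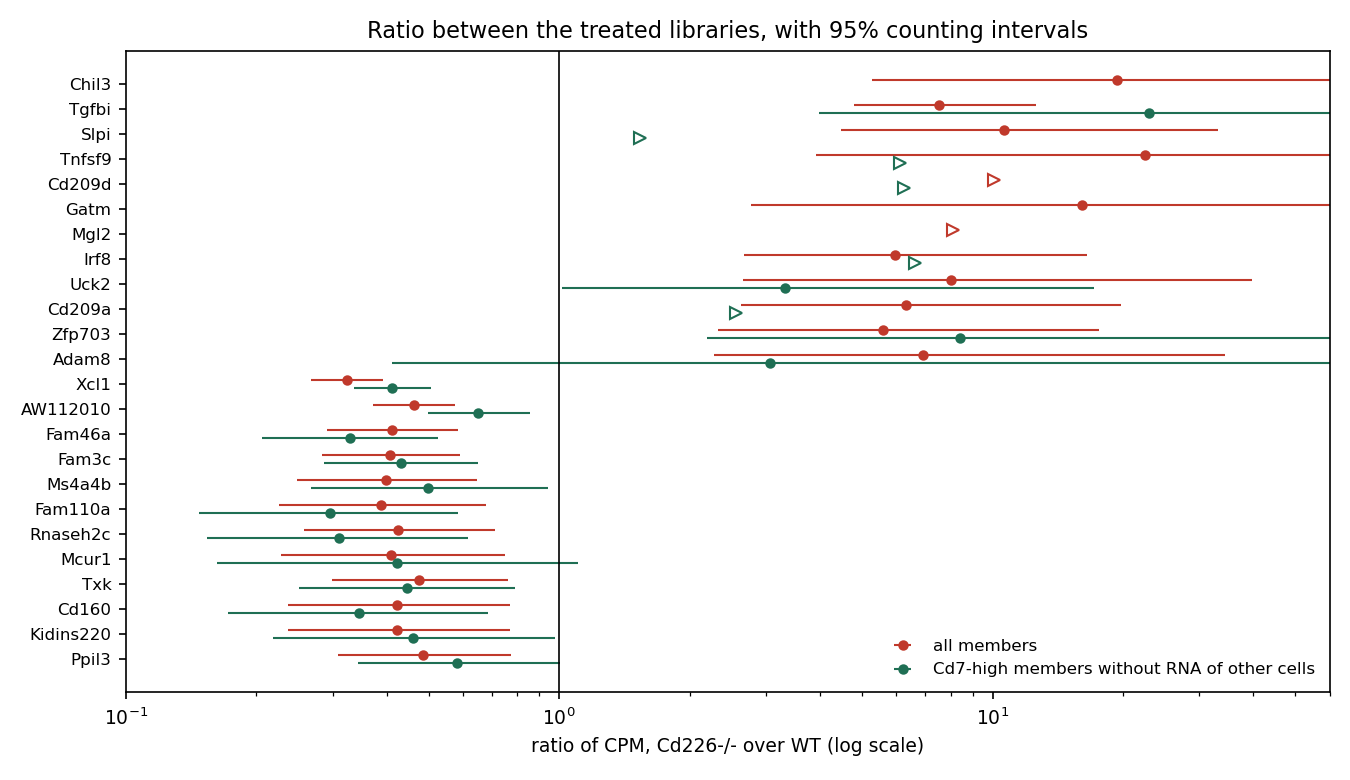
Ratio of CPM in Cd226-/- over WT (log x axis, 95% intervals) for the 24 named genes, in all members (red) and in Cd7-high members without RNA of other cells (green). Open arrows are ratios with WT members at 0 UMIs set to the floor of 3 UMIs, drawn without intervals. Such ratios under 1, and genes at or under the floor in both groups, are not drawn. Xcl1 lies at 0.323 in all members and 0.412 in the Cd7-high members.

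Genes of effector function and activation differed mostly by less than 2-fold, with Ccl4 as an exception. Among Cd7-high members without RNA of other cells, Areg stood at 2117 CPM in the Cd226-/- library and 1378 CPM in the WT library (1.54, 1.34 to 1.77), and Tnfrsf9 at 585 and 418 CPM (1.40, 1.08 to 1.83). The transcription-factor gene Junb was at 3117 and 1841 CPM (1.69). The integrin gene Itgae, which binds E-cadherin on keratinocytes, was at 335 and 502 CPM (0.668), and Hilpda, a lipid-droplet protein gene, at 348 and 664 CPM (0.525). The chemokine gene Ccl4 was higher, at 643 and 44.6 CPM (14.4, 7.22 to 33.7), with a UMI in 15.6% and 5.56% of cells. Fibroblasts carried a Ccl4 UMI in 11.3% and 5.64% at their greater depth. After thinning to 1000 UMIs the shares were 7.39% of these Cd226-/- members against 1.28% of fibroblasts, and 2.74% of WT members against 0.748%. Over all members, not only these Cd7-high ones, single cells decided other effector genes. One WT member held all 69 WT UMIs of granzyme A (Gzma), one Cd226-/- member held 55 of 64, and one WT member held 81 UMIs of Ccl5. Ifng had 15 UMIs in 5 Cd226-/- cells, 27 UMIs in 3 WT cells with 20 of them in 1, and 11 UMIs in 2 naive cells.

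Gene lists gave the same picture of modest differences in these Cd7-high members, where all tested genes had a median log2 ratio of 0.03. Of 12 measured checkpoint and costimulation genes 8 were higher in Cd226-/- (median 0.13), and of 22 activation genes 14 (0.15). Of 12 cytotoxic genes 4 were higher (-0.07), of 14 CD3 signalling genes 5 (-0.05), of 10 cytokine genes 3 (-0.54) and of 20 interferon-gamma response genes 9 (-0.14). Of 14 receptors known from epidermal gamma-delta and NK cells 5 were higher (-0.14). Tyrobp (500 and 117 CPM) and Crtam (79.1 and 27.9 CPM) were at least 2-fold higher in Cd226-/-, and Cd160 and Cd101 at least 2-fold lower.

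Against naive skin, the treated members differed in composition and, within the Cd7-high members, in state. Of 4632 genes, 689 were at least 2-fold higher in Cd226-/- members than in naive members (14.9%) and 211 lower (4.56%). Of 2876 genes, 307 were higher in WT members than in naive members (10.7%) and 209 lower (7.27%). With TMM scaling that second split was 232 higher and 286 lower. TMM shifted the median of all genes from 0.13 to 0.00 for Cd226-/- over naive and from 0.04 to -0.16 for WT over naive on the log2 scale. Both comparisons share the same naive cells, so each is given for itself. Cd7-low members were a minority of treated members and most of the naive ones, and genes higher in Cd7-low members were among those lower in treated members. This is the composition under the IL-17 limit, which left out 121, 76 and 16 mostly Cd7-low cells of the Cd226-/-, WT and naive libraries. The part of that limit in the genes lower in treated members was not tested. Il7r was at 78.2 CPM in Cd226-/- members, 123.5 CPM in WT members and 617 CPM in naive members, ratios to naive of 0.127 (0.0986 to 0.161) and 0.200 (0.138 to 0.283). Blk was at 27.4, 21.2 and 238 CPM. Of 19 measured genes of the IL-17 programme 18 were lower in each treated library, with median log2 ratios of -2.69 and -2.30 beside 0.16 and 0.07 over all genes. Within Cd7-high members without RNA of other cells few of them were measured, 6 and 1, with medians of 0.82 and 0.83. Ccr6, Actn2, Sox13, Ccr10, Podnl1 and Aqp3 were lower named genes of the same kind. Gzmb was among the higher ones in both comparisons, and Il22, Chil3 and Slpi in that of Cd226-/- with naive. The Il22 UMIs of the Cd226-/- members (224) lay in 7 cells, and Chil3 and Slpi had 6 of 140 and 12 of 192 UMIs in Cd7-high members without RNA of other cells. Sums over all members do not by themselves tell fewer cells of a kind from less RNA per cell. Within Cd7-low members without RNA of other cells, Blk stood at 314, 292 and 352 CPM in the Cd226-/-, WT and naive libraries. Il7r stood there at 431, 818 and 918 CPM.

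Within Cd7-high members without RNA of other cells, 233 of 2117 genes were at least 2-fold higher in Cd226-/- than in naive (11%) and 144 lower (6.8%), and 100 of 1109 were higher in WT than in naive (9.02%) and 98 lower (8.84%). At the minimum of 20 UMIs used for gene lists the shares were 12.8% higher and 9.25% lower for Cd226-/- and 8.81% higher and 11.6% lower for WT. The treated cells were higher in amphiregulin, in receptors of costimulation and inhibition and in serpins that block granzymes. They were lower in perforin, in the T-cell receptor complex and in several surface receptors known from epidermal cells, while other such receptors were higher. The values below are from these Cd7-high members, whose median depth was 3414, 2693.5 and 4732 UMIs in the Cd226-/-, WT and naive libraries. Their summed macrophage list was 444, 251 and 421 CPM and their fibroblast list 528, 1199 and 18.1 CPM in the Cd226-/-, WT and naive libraries, and the part of this RNA in the differences was not tested.

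The ligands and growth factors differed in both directions. Areg (ENSMUSG00000029378, chromosome 5, 91139599 to 91148432, + strand) stood at 2117 CPM in the Cd226-/- library, 1378 CPM in the WT library and 66.2 CPM in the naive library. The ratios to naive were 32.0 (17.8 to 64.3) and 20.8 (11.4 to 42.2). An Areg UMI was found in 46.8%, 29.6% and 8.82% of cells, against 0.742%, 0.608% and 0% of fibroblasts, and in 34.6%, 23.7% and 3.82% after thinning. Tnfsf11, the gene of the osteoclast factor RANKL, was at 145, 151 and 12.04 CPM (12.1, 3.22 to 102, and 12.5, 3.14 to 109), and Tgfb1 at 399.5, 418 and 138 CPM (2.89 and 3.02). Xcl1 went the other way, at 427, 1038 and 1456 CPM, with ratios to naive of 0.293 (0.242 to 0.355) in the Cd226-/- library and 0.712 (0.585 to 0.866) in the WT library. The naive level was the highest of the 3, with a UMI in 79.4% of cells (57.6% after thinning). The growth-factor gene Il2 had 4, 2 and 17 UMIs, ratios of 0.0835 (0.0204 to 0.256) and 0.109 (0.0122 to 0.459).

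Among receptors, Ramp3, the partner chain of the calcitonin-family receptors for adrenomedullin, was found in most treated cells and few naive ones. It stood at 1062 CPM in the Cd226-/- library, 1004 CPM in the WT library and 18.1 CPM in the naive library, where it had 3 UMIs. The ratios were 58.8 (20.01 to 286) and 55.6 (18.7 to 272). It was found in 85.3%, 79.6% and 8.82% of cells and in 2.15%, 2.43% and 0% of fibroblasts. The costimulatory receptor gene Tnfrsf9, which encodes 4-1BB, was at 585, 418 and 42.1 CPM (13.9, 6.65 to 34.9, and 9.93, 4.59 to 25.5). The inhibitory receptor gene Havcr2, which encodes TIM-3, was at 267, 379 and 36.1 CPM (7.40, 3.30 to 20.5, and 10.5, 4.58 to 29.6). Icos, a CD28-family costimulator, was at 214, 145 and 0 CPM, with ratios of 11.8 and 8.03 at the floor of 3 UMIs. Of the checkpoint and costimulation list 10 of 11 measured genes were higher in Cd226-/- than in naive, 9 of them at least 2-fold, with a median log2 ratio of 1.97 beside -0.04 over all genes. In WT 5 of 6 were higher, 4 of them at least 2-fold (Havcr2, Tnfrsf9, Tnfrsf18 and Icos), with a median of 2.02 beside -0.09. The lipid-sensing receptor gene Gpr55 was at 229, 218 and 18.1 CPM (12.7, 4.22 to 62.4, and 12.1, 3.83 to 61.0).

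Several receptors known from epidermal cells were lower in both treated libraries. In these Cd7-high members the list median was at least 2-fold lower than naive in the WT library only. Cd160 was at 38.5 CPM in the Cd226-/- library, 112 CPM in the WT library and 259 CPM in the naive library, ratios to naive of 0.149 and 0.431. Cd244, a SLAM-family receptor gene, was at 173, 178.5 and 427 CPM (0.405 and 0.418), and Cd96, which binds a nectin-family ligand that CD226 also binds, at 111, 128 and 295 CPM (0.377 and 0.435). Hcst, which encodes the DAP10 adaptor of NKG2D, was at 369.6, 491 and 921 CPM (0.401 and 0.533). Klrk1, which encodes NKG2D itself, was at 274, 418 and 265 CPM (1.03 and 1.58). Klrd1 (720, 876 and 674 CPM) and Klrb1b (694, 909 and 385 CPM) were not lower either. Jaml, the receptor gene for a keratinocyte adhesion protein, was at 171, 139.5 and 319 CPM (0.536 and 0.437). Of 13 such receptors measured, 6 were higher in Cd226-/- than in naive and 5 at least 2-fold lower (median -0.19), and in WT 5 of 13 were higher and 7 at least 2-fold lower (-1.19). Over all members the medians were 0.13 and 0.38, over members without RNA of other cells 0.50 and 0.54, and over all Cd7-high members -0.52 and -0.71. Itgae, which anchors the cells to keratinocytes, was at 335, 502 and 782 CPM (0.429 and 0.642).

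Granule genes split. Perforin (Prf1) stood at 359 CPM in the Cd226-/- library, 379 CPM in the WT library and 1288 CPM in the naive library, ratios of 0.279 (0.226 to 0.343) and 0.295 (0.221 to 0.389), and was found in 62.4%, 53.7% and 88.2% of cells and 28.5%, 31.2% and 62.7% after thinning. Fibroblasts carried it in 0.0353%, 0.0243% and 0%. The granule protease gene Ctsw was at 402, 469 and 1836 CPM (0.219 and 0.255). Gzmb was higher, at 115, 145 and 0 CPM, with ratios of 6.39 (2.07 to 32.0) and 8.03 (2.46 to 41.5) at the floor of 3 UMIs. Gzmc, a granzyme of activated lymphocytes, was at 363, 463 and 247 CPM. The granzyme inhibitor genes Serpinb9 (455, 474 and 12.04 CPM, ratios 37.8, 10.3 to 314, and 39.4, 10.6 to 331) and Serpinb6b (780, 753 and 120 CPM, 6.48 and 6.26) were higher, as was Gsdme, a pore-forming gasdermin gene (291, 223 and 30.1 CPM, 9.66 and 7.42). Fibroblasts also carried Serpinb9, in 14.9%, 12.8% and 25.3% of cells.

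The receptor complex was lower as a whole. Cd3g stood at 3660 CPM in the Cd226-/- library, 4050 CPM in the WT library and 9581 CPM in the naive library (0.382 and 0.423). Cd3e was at 1637, 1540 and 3376 CPM (0.485 and 0.456), Cd3d at 1130, 1138 and 2106 CPM (0.537 and 0.540) and Cd247, the zeta chain, at 423, 418 and 1071 CPM (0.395 and 0.391). The signalling chain gene Fcer1g was at 2053, 1914 and 3828 CPM (0.536 and 0.500). Trdc, Cd3 genes and Fcer1g took part in the choice of these cells, with minimum counts that a deep cell meets more readily, so their ratios are descriptions. Tcrg-C1, which the rule did not use, was at 707, 742 and 1703 CPM (0.415 and 0.436), and 0 of 5 measured receptor-chain genes were higher in either treated library. Of 14 CD3 signalling genes 2 were higher in each comparison (median log2 ratios -0.75 and -0.65). The surface glycoprotein gene Thy1 (395, 452 and 1547 CPM, 0.256 and 0.292) and the calcium-binding protein gene S100a4 (2134, 1964 and 7240 CPM, 0.295 and 0.271) were lower by a like factor.

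Activation genes stood higher in the treated cells. Nr4a1, an orphan receptor gene induced by T-cell receptor signals, was at 318 CPM in the Cd226-/- library, 435 CPM in the WT library and 18.1 CPM in the naive library (17.6, 5.92 to 86.5, and 24.1, 7.95 to 119). The immediate-early gene Egr1 was at 327, 307 and 54.2 CPM (6.03 and 5.66), while Fos was at 6089, 5283 and 3942 CPM (1.54 and 1.34). Of 22 measured activation genes 20 were higher in Cd226-/- than in naive (median 1.11), and of 21 in WT 17 (0.79). The sterol sulfotransferase gene Sult2b1 was at 265, 268 and 12.04 CPM (22.01, 5.97 to 184, and 22.2, 5.83 to 189), the ubiquitin ligase gene Neurl3 at 1102, 1238 and 277 CPM (3.98 and 4.47) and Hilpda at 348, 664 and 54.2 CPM (6.43 and 12.3).

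**Figure D5:**
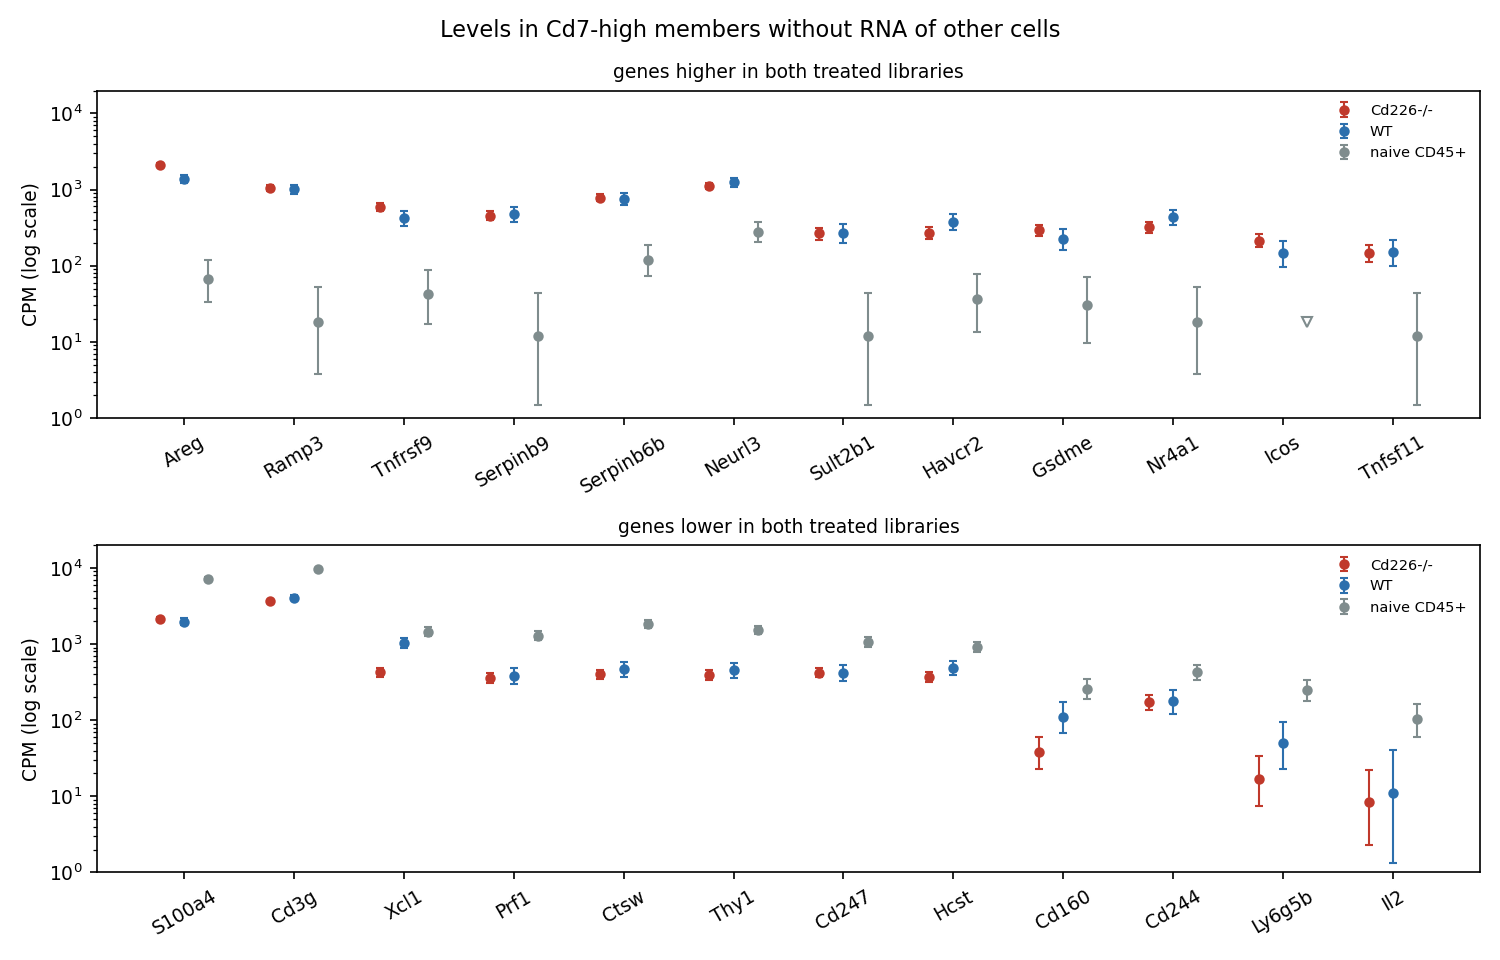
Level in CPM (log axis, 95% Poisson intervals) of 12 genes that were higher and 12 that were lower in treated libraries, in Cd7-high members without RNA of other cells of the Cd226-/-, WT and naive CD45+ libraries. Open triangles mark the floor of 3 UMIs for a library with none. Areg stood at 2117, 1378 and 66.2 CPM, and Prf1 at 359, 379 and 1288 CPM.

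Members with and without a UMI of Trdv4 or Tcrg-V5 differed little in a way shared by the libraries. Of genes with at least 50 UMIs, 123 of 3189 were at least 2-fold higher in receptor-positive members of the Cd226-/- library (3.86%) and 45 lower (1.41%). In the WT library 59 of 862 were higher (6.84%) and 13 lower (1.51%), and in the naive library 152 of 2006 (7.58%) and 30 (1.5%). Of 680 genes measured in all 3 libraries, 4 were at least 1.5-fold higher in each and 0 lower in each. They were Apoe, the lipid-carrier gene, Fgl2, a secreted fibrinogen-like gene, Acpp, an acid phosphatase gene, and Mpp6, a scaffold gene. In members without RNA of other cells Acpp stood at 1.69, 2.51 and 5.13 in the Cd226-/-, WT and naive libraries and Mpp6 at 1.64, 1.41 and 3.90, while Apoe stood at 0.787, 0.639 and 1.23 and Fgl2 at 0.708, 1.42 and 3.25. A receptor-negative member may be a cell whose V segment was not read. Receptor-positive and receptor-negative members had median depths of 4195.5 and 3896 UMIs in the Cd226-/- library, 2909 and 2756 in the WT library, and 5140 and 6021 in the naive library.

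Cells just inside and just outside the IL-17 limit were mostly Cd7-low. Of the members with 0 IL-17 UMIs (154, 61 and 103), 90.9%, 93.4% and 36.9% were Cd7-high. Just inside the limit, at 3 or 4 UMIs, there were 4, 1 and 2 members, of which 25%, 0% and 0% were Cd7-high, and just outside it, at 5 to 8 UMIs, 7, 1 and 6 cells with 28.6%, 0% and 0%. Over 20 UMIs there were 100, 74 and 7 cells, with 9%, 9.46% and 0% Cd7-high. At the Trdc limit 5, 2 and 7 members had exactly 3 UMIs, and 8, 3 and 5 further cells had exactly 2.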

How the data were processed

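Skin cells were profiled with 10x 3′ v3.1 libraries. Per the submitters' processing notes, Cell Ranger 3.1.0 and the mm10 genome were used. The deposited matrices hold whole-number UMI counts per gene and per antibody tag for each barcode, with no normalization and, per the file headers, integer values. From these counts CPM was computed here as UMIs of a gene summed over a set of cells, per 1000000 gene UMIs of that set. Cells were filtered and chosen as the report states. The members and gene lists were chosen with earlier results of these data known. Genes were compared where they had at least 50 UMIs over both sets, and called at a ratio of 2. Gene lists used a minimum of 20 UMIs. Ratios have exact conditional binomial intervals, levels exact Poisson intervals and shares Clopper-Pearson intervals. A set with 0 UMIs was given the floor of 3 counts over the set.

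The genes named per comparison were the 12 highest and the 12 lowest by the interval bound nearest 1, with a ratio of at least 2 that stayed at 1.5 without the richest cell, UMIs in at least 5 cells, and a level at or above that of all kept cells of the library. Mitochondrial, ribosomal, haemoglobin, immunoglobulin, T-cell receptor segment and sex-chromosome marker genes were left out. Members of the gene lists were named with at least 50 UMIs. The genes of the Cd7-high comparisons were further chosen from these names and lists after their values were seen.

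Doublets were scored with Scrublet (scanpy 1.11.5, expected rate 0.06). It marked 161, 170 and 9 of the kept barcodes in the Cd226-/-, WT and naive CD45+ libraries, and no barcode was removed. Kept barcodes were 6682 of 7991, 7212 of 8527, 3513 of 5913 and 11200 of 11875 in the Cd226-/-, WT, naive CD45+ and naive CD45- libraries. IL-17-high cells passed the same rule with over 4 IL-17 UMIs. CD8 T cells had at least 2 Cd8a or Cd8b1 UMIs, at least 1 CD3 UMI and no Trdc. Fibroblasts had at least 20 UMIs of Col1a1, Col1a2 and Col3a1 and no Ptprc or CD3. Intervals came from scipy 1.17.1 and sums from numpy 2.4.6 and pandas 2.3.3 under Python 3.11.15. TMM factors, the only use of edgeR (4.0.16, in R 4.3.3), scaled an alternative. The counting was tested on simulated data. The order of the authors' steps beyond these names is not given in the sources used here.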

Additional observations from a re-analysis of the deposited data

Results flagged for a closer look

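The summed Xcl1 level differed between members with and without a Trdv4 or Tcrg-V5 UMI, in opposite directions in treated and naive skin. In members with against members without a Trdv4 or Tcrg-V5 UMI it stood at 178 and 363 CPM in the Cd226-/- library, a ratio of 0.489 (0.376 to 0.636). In the WT library it stood at 423 and 1556 CPM, a ratio of 0.272 (0.204 to 0.361). In the naive library it stood at 465 and 175 CPM, a ratio of 2.66 (1.97 to 3.65). The share of cells with an Xcl1 UMI did not go that way in the treated libraries. It was 26.7% and 25.5% in the Cd226-/- library (32 and 13 cells), 46.9% and 36.8% in the WT library (23 and 7 cells) and 34.4% and 9.80% in the naive library (22 and 5 cells). Of the 117 UMIs of the 7 WT receptor-negative cells, 61 came from 1 cell. The difference between the libraries was not tested, since each is 1 library. Within Cd7-high members the ratios were 0.438, 0.260 and 0.801 (0.593 to 1.10), and within those without RNA of other cells 0.353, 0.231 and 0.694, so the naive ratio above 1 was seen over all members, of which the receptor-negative ones were mostly Cd7-low.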

How the results depend on the processing

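No paired analysis was possible because each group is 1 library and no replicate can be left out. Alternatives restricted to members without RNA of other cells or to Cd7-high members, and those on the Cd7-high share, were chosen after seeing the data. The share of Cd7-high members stayed within its counting interval under the other limits on Trdc, mitochondrial UMIs, doublets, other RNA, depth and the 3-gene sum. It also did so with IL-17 at most 1 UMI. No higher IL-17 limit was tried, and the cells over the limit were mostly Cd7-low, so the share is not shown to be independent of that limit. The share was 78.4% in receptor-negative Cd226-/- members, and 48.4% and 15.7% in receptor-positive and receptor-negative naive members. The receptor share was 44.4%, 45.6% and 39.1% with at least 2 UMIs in the Cd226-/-, WT and naive libraries, 29.8%, 39.7% and 23.7% after thinning, and 79.5% in naive Cd7-high members. Genes past 2-fold between Cd226-/- and WT numbered 256, and 828 with a minimum of 20 UMIs, 100 with 100, 406 with the richest cell left out, 92 without RNA of other cells and 81 in Cd7-high members without it. Cd226-/- against naive gave 900, and 1706, 500, 425 (receptor-negative) and 377 (Cd7-high without other RNA). WT against naive gave 516, and 1253, 244, 332 (receptor-positive), 249 (receptor-negative), 282 (Cd7-high) and 198 (Cd7-high without other RNA). Receptor-positive against receptor-negative gave 168 and 72 in the Cd226-/- and WT libraries, and 100 and 24 without RNA of other cells. List medians changed sign as follows. Recirculation genes, WT over naive, were at 0.23 in Cd7-high members and 0.13 without other RNA. Cytokines, Cd226-/- over naive, were at -0.14 and -0.34 in the same sets, and WT over naive at -0.68 in receptor-negative members. In Cd7-high members without other RNA the IL-17 programme was at 0.82 and 0.83 and the type I interferon list at 0.92 and 0.63 for Cd226-/- and WT over naive, and lipid genes at -0.81 for Cd226-/-. Ratios changed side for Mcur1 (1.59, receptor-negative) and Cd160 (2.91, receptor-positive), Cd226-/- over WT. In Cd7-high members without other RNA so did Il7r (2.31 and 9.27, on 2 naive UMIs) and, WT over naive, Tmem176a (2.32), Uhrf2 (1.85) and Nrip1 (2.16). Tesc had 5 UMIs in Cd226-/- against 0 in naive members there, which with the floor of 3 gives 0.592. Of 72 named gene results 71 kept direction and 2-fold size under TMM, 64 without RNA of other cells, and 43 of 58 in Cd7-high members without it. The causes were not tested. WT members summed to 283435 UMIs, against 1023480 in Cd226-/- and 723325 in naive members, which limits the WT comparisons most.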

Other observations

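Some Cd7-low members of the Cd226-/- library carried effector RNA that those of naive skin had little of. Among those without RNA of other cells, Gzmb was at 1006 CPM in the Cd226-/- library, 175 CPM in the WT library and 4.43 CPM in the naive library, in 6, 1 and 1 cells, and Areg at 1176, 0 and 17.7 CPM, in 6, 0 and 3 cells. The barrier cytokine gene Il22 had 198, 35 and 4 UMIs, the 35 WT UMIs in 1 cell. These rest on 22, 7 and 75 cells.

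Other programmes also differed in Cd7-high members without RNA of other cells. All 8 measured cell-cycle genes were higher in Cd226-/- than in naive (median log2 ratio 1.57), and all 3 measured in WT (0.97). Mki67 had 44, 13 and 0 UMIs in the Cd226-/-, WT and naive libraries, in 9 of 109, 3 of 54 and 0 of 34 cells, and a count of 0 in 34 allows a share of up to 10.3% by the exact binomial interval, above both treated shares (8.26% and 5.56%). Of the interferon-gamma response list 16 of 19 genes were higher in Cd226-/- than in naive (0.71) and 12 of 14 in WT (1.04), among them Irgm1, Tap1 and Psmb8 at least 2-fold in WT. Glycolysis genes were higher in 12 of 13 and 10 of 11 cases (0.37 and 0.16), and stress genes lower, with 6 of 16 and 4 of 15 higher (-0.40 and -0.39).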
